A study of Homo sapiens with 31 samples.

Results

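Very long genes, here genes whose row in the deposited expression table spans at least 250 kb from start to end, were followed across 8 treatments of H460 cells, an established human lung cancer line. A member had to be a row with 1 gene symbol, lie off chromosome Y and have a mean of at least 50 DESeq2-normalized reads over the 31 libraries. Of 74834 rows in the table, 589 met these conditions. Of the 1044 rows with 1 symbol and such a span, 453 had a lower mean, and 2 lay on chromosome Y. A further 48 long rows that join several genes and 6 without a symbol were left out. The members were thus chosen by their span and by their mean level over all libraries, with earlier results of these data known. The counts and p-values below are therefore not an independent test of this set. No contrast between treatments entered the rule itself. For 24 members, however, the mean would be under 50 without their highest group, for example DMKG, B87+DMKG or Nutlin-3. Counts and medians over the members include all 24. Of those named for a change below, ESR1, ZBTB7C, SH3PXD2A, NLGN1, NEK10 and NPIPB9 are among the 24, and their values are given as a description, with no test.

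Polyadenylated RNA was sequenced after 6 h of treatment. The groups were untreated cells (Control), B87 (BAY87-2243, an inhibitor of mitochondrial complex I) at 1 µM, DMKG (dimethyl α-ketoglutarate, a cell-permeable form of the Krebs cycle metabolite) at 5 mM, and both together (B87+DMKG). The other groups were Nutlin-3 at 30 µM, which keeps MDM2 from binding p53, Rita at 50 µM, a compound described as an activator of p53, and each of these on top of B87+DMKG. Each group had 4 libraries, Nutlin-3 had 3, and each library came from 2 pooled wells. The sources do not state that the replicates came from separate experiments, so the spread behind every p-value is that between samples and may be technical. The libraries held 33.4 to 82.5 M reads, with a median of 63.1 M (M, mega). Keratin 8 and keratin 18, which mark epithelial cells, were abundant in every library, whereas EPCAM averaged 50.8 and E-cadherin (CDH1) 2.77 normalized reads. CD3E of T cells and the endothelial genes PECAM1, CDH5 and TIE1 were at 0 in Control. Other non-epithelial markers were read. Over all libraries the fibroblast markers COL1A1, PDGFRB and LUM averaged 683, 208 and 158 normalized reads, and COL1A2 averaged 1.34. The leukocyte markers CD14 and PTPRC averaged 175 and 1.93, and the endothelial marker KDR 11.2. DMKG replicates 1 and 2 stood apart from replicates 3 and 4 at several members, as did B87+DMKG replicates 1 and 2 from 3 and 4, and Nutlin-3 replicate 1 from the other two. Most totals that rest on them are given with and without them, while most counts by role are given only with all libraries.

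A very long gene is mostly intron. RNA polymerase II has to travel the whole of it to complete a transcript, which for the longest genes can take hours, and elongation factors, topoisomerases and the U1 snRNP act along the way. Many such genes encode cell adhesion and guidance receptors, cytoskeletal scaffolds, signalling regulators and transcription factors, and the longest of them lie in common fragile sites.

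The start regions of 4 members are printed because these genes mark both ends of the response described below: MAML2, MAML3 and RGL1 were among the members that fell furthest with Rita, and PCDH9 rose. Each sequence is the 250 bases before the RefSeq transcript start on GRCh38.p14, on the gene's own strand, and capitals mark matches to the GC box, the letters GGGCGG or their complement CCGCCC. The windows are chr11:96343196-96343445 (minus strand) for MAML2, chr4:140154185-140154434 (minus) for MAML3, chr1:183635859-183636108 (plus) for RGL1 and chr13:67230337-67230586 (minus) for PCDH9.
MAML2: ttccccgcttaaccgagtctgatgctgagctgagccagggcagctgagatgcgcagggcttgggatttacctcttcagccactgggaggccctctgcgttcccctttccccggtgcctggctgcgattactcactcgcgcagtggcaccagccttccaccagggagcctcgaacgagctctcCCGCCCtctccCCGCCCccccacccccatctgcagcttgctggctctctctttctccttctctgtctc
MAML3: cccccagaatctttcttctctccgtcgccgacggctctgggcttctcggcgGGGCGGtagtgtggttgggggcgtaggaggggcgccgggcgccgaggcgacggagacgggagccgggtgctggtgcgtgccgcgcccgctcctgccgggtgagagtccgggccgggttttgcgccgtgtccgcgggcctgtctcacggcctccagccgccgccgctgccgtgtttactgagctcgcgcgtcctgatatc
RGL1: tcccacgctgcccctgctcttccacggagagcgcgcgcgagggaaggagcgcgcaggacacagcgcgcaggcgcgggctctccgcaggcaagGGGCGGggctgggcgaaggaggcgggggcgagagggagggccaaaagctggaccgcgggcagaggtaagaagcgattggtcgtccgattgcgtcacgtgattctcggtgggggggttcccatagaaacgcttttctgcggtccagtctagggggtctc
PCDH9: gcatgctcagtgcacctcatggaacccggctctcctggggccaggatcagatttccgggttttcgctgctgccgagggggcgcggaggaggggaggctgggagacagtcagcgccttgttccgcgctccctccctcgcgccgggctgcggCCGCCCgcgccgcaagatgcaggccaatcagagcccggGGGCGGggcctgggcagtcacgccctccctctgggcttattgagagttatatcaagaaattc
GC content was 63.6% for MAML2, 72.4% for MAML3, 68.0% for RGL1 and 66.8% for PCDH9. Each of the 4 windows held at least 1 GC box, so these letters did not separate PCDH9 from the other genes. RefSeq start regions could be matched by gene ID, or else by symbol, for 498 members. A GC box, on either strand, lay in 58.9% of the 384 matched members that were lower with Rita, in 57.0% of the 114 that were not, and in 66.8% of 10308 tested genes. The letters TATAAA were found in 7.03%, 4.39% and 5.54% of the same sets, CACGTG in 7.29%, 7.89% and 8.76%, and CCAAT in 28.9%, 31.6% and 34.6%. A match is only a match of letters in this window.

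The median member spanned 371 kb in the table, carried 9.37 kb of exon, or 2.48% of its GENCODE length, and had 17 exons, with a longest intron of 123 kb. Spans ran from 250 kb to 3855 kb. Just inside the span limit lay KIF5C (250481 bases) and just outside it TASP1 (249546 bases). Just inside the level limit lay CADM1 with a mean of 50.1, and just outside it EDA with 48.7. Chromosome 2 held the most members (55), and chromosomes 18 and 13 had the largest shares of their tested genes among them, 9.22% and 8.47%. On chromosome 19, 4 of 850 tested genes were members (0.471%).

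The span in the table was not always the length of the gene. GENCODE release 29 gave a length for 588 members, of which 528 were at least 250 kb long, 22 were between 100 and 250 kb, and 38 were under 100 kb. The latter included FTL (ferritin light chain), KRT19 (keratin 19), TUBB (a beta tubulin), the signalling adaptor SHC1 and POLRMT, the mitochondrial RNA polymerase, whose row had the widest span of all. Results are therefore given for all members and, where it matters, for the 528 alone. The GENCODE length runs from the first to the last base of the gene over all its transcripts. An extended transcript can therefore make a gene count as long although its other transcripts are short.

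Rita lowered the very long genes as a group. The level of 448 of the 589 members fell against Control and that of 20 rose (limma, Benjamini-Hochberg adjusted p under 0.05 over 16259 rows), whereas over all rows 26.3% were called lower and 25.8% higher. The median log2 fold change, on the log2(level + 1) scale used throughout, was -0.86 for the members, a level of 0.553 of Control, and 0.03 over all rows. With the same total in every library 484 fell and 7 rose. A fall of at least 1 log2 unit was called in 253 members, against 7.87% of all rows, and 67 members fell by at least 2. In bulk libraries, fewer cells that express a gene and less RNA per cell cannot be told apart. In 434 members every Rita library lay below every Control library, which is 73.7% of the members, beside 26.5% of all rows.

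**Figure D1:**
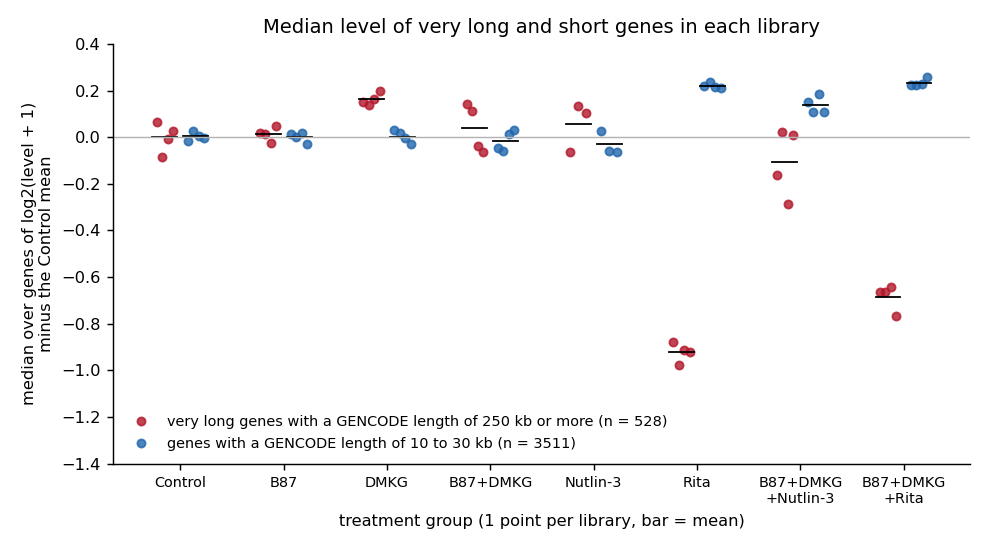
Each point is 1 library, placed by treatment on the x axis; the y axis gives the median over genes of log2(level + 1) minus the gene's Control mean, and bars are group means. The 528 very long genes (red) sit near -0.9 in Rita and near -0.7 in B87+DMKG+Rita, below all other libraries, while genes of 10 to 30 kb (blue) sit slightly above 0 there.

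The fall was seen library by library. Over all members the median difference from the Control mean lay between -0.90 and -0.79 in the 4 Rita libraries and between -0.75 and -0.60 in the 4 B87+DMKG+Rita libraries. It lay between -0.08 and 0.06 in the Control libraries and between 0.13 and 0.19 in the DMKG libraries. No library of another treatment reached the range of the Rita libraries.

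The change followed gene length up to the very long class and did not deepen within it. Among tested rows with 1 symbol, the median log2 fold change with Rita was 0.29 in 2687 genes under 10 kb, 0.22 in 3511 genes of 10 to 30 kb and -0.07 in 4162 genes of 30 to 100 kb. It was -0.56 in 1896 genes of 100 to 250 kb, -0.89 in 533 genes of 250 to 500 kb, -0.87 in 154 genes of 500 to 1000 kb and -0.62 in 38 genes over 1000 kb. Over the 528 members with a GENCODE length of at least 250 kb, Spearman's rank correlation of the change with that length was 0.06. It was -0.09 with exonic length and 0.03 with exon number. These are descriptions across genes of the same libraries, and genes are not independent replicates.

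The members whose gene is short stood apart from the rest. Of the 38 under 100 kb, 10 rose and 10 fell with Rita, with a median of -0.10, whereas of the 528 long ones 10 rose and 421 fell, with a median of -0.91. FTL, which stores iron as part of ferritin, rose by 0.47, SHC1 by 0.26 and MAPK3, the kinase ERK1, by 0.52. TUBB changed by -0.69.

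**Figure D2:**
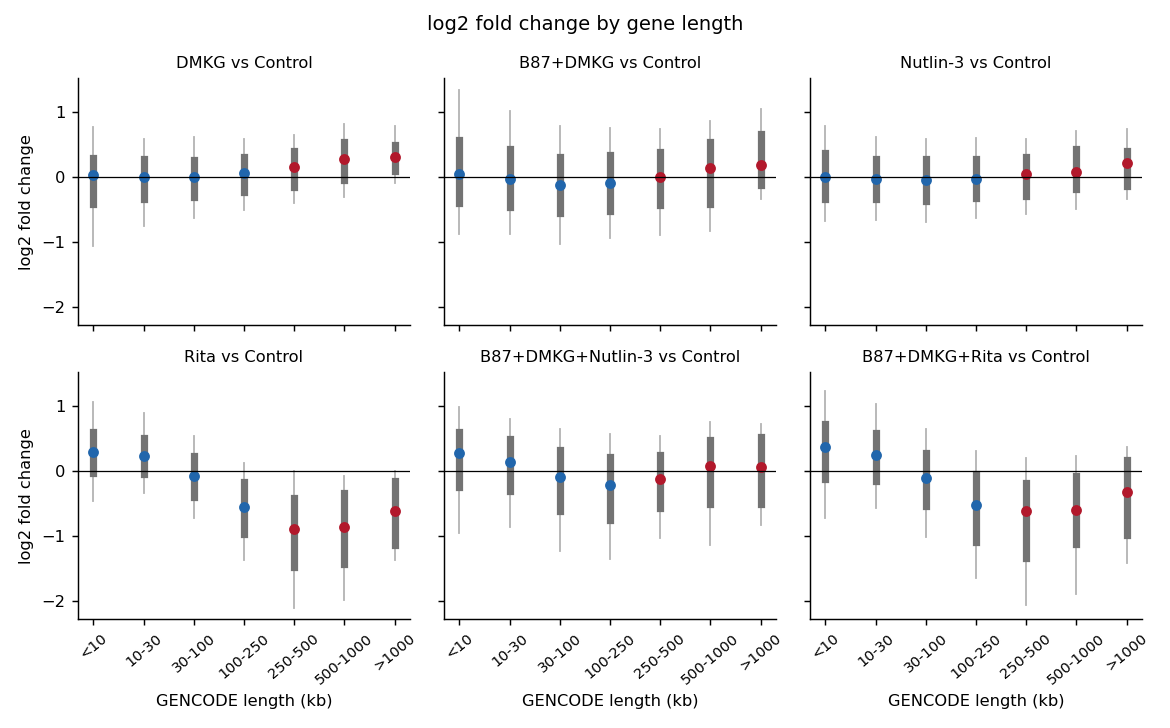
Log2 fold change (y axis) by GENCODE length class of tested genes in kb (x axis), 1 panel per comparison with Control; points are class medians (red from 250 kb), thick bars the quartiles and thin bars the outer deciles. With Rita the medians run from 0.29 in the shortest class to -0.89 in genes of 250 to 500 kb, while with DMKG the longest class has a median of 0.31.

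MAML2 and MAML3, coactivators that the Notch receptor's intracellular domain recruits to its target genes, were among the members with the deepest falls. MAML2 lies on hg19 at chr11:95709757-96076382 on the minus strand. Its level was 358, 272, 335 and 347 normalized reads in Control and 20.1, 32.5, 35.4 and 44.0 with Rita. The 2 groups were far apart and did not overlap. The log2 fold change was -3.32 ± 0.26 (SE, n = 4 and 4; limma adjusted p = 8.64e-12). MAML3, at chr4:140637545-141075233 on the minus strand, stood at 611, 478, 547 and 577 in Control and at 61.9, 68.1, 51.9 and 82.7 with Rita. Every Rita library was below every Control library again, with a log2 fold change of -3.06 ± 0.16 (SE, n = 4 and 4; limma adjusted p = 1.66e-15). The third family gene, MAML1, shares a row with a neighbour in the table and was not analysed here.

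RGL1, an exchange factor for the small GTPase Ral, had the lowest log2 fold change of all members with Rita. It lies at chr1:183605182-183897685 on the plus strand, with Control levels of 199, 175, 197 and 206. The Rita libraries held 21.8, 6.05, 7.86 and 49.2. The 4 Rita values differ widely among themselves but all lie below Control. The log2 fold change was -3.57 ± 0.46 (SE, n = 4 and 4; limma adjusted p = 1.32e-07), and at so few reads its size depends on the pseudocount. With a pseudocount of 5 in place of 1 it was -3.22.

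GLI2, a transcription factor of the Hedgehog pathway, showed the same order of levels. Control libraries held 483, 399, 431 and 422, and Rita libraries 77.6, 59.8, 52.7 and 98.4. The groups did not overlap, and the log2 fold change was -2.61 ± 0.18 (SE, n = 4 and 4; limma adjusted p = 5.26e-13).

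The role lists were put together with earlier results of these data known, so the order of the roles is a description. Transcription and chromatin regulators had the lowest median among the roles. Of 56 such members, 53 fell with Rita and 1 rose, with a median of -1.58. Beside the MAML genes, they held ZNF407 (-3.06), ZNF804A (-3.02) and GLIS3 (-2.94), which encode zinc finger proteins, and the retinoic acid receptor RARB (-2.99). TCF4, an E protein, changed by -2.26 and ARID1B, a subunit of the SWI/SNF remodeller, by -2.05. The member that rose was RUNX1, a factor of blood development.

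Kinases, phosphatases, phosphodiesterases and regulators of small GTPases mostly fell. Among 70 such members, 61 fell with Rita and none rose, with a median of -1.18. PDE7B, which degrades cAMP, fell by 3.28 on the log2 scale, STARD13, a GTPase-activating protein, by 3.13, PRKCE, protein kinase C epsilon, by 3.01 and RASAL2, a GTPase-activating protein for Ras, by 2.67.

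Ubiquitin ligases and other genes of proteolysis followed. Of 19, 16 fell and none rose, with a median of -1.30, and MARCH1 (-2.54), HECW2 (-2.40) and KLHL29 (-2.23) led them. Of 63 genes of the cytoskeleton, polarity and vesicle traffic, 52 fell and none rose, with a median of -0.90. The formin FMN1 (-2.38), the scaffold MAGI3 (-2.16) and ERC1 (-2.15) were the lowest. Of 50 genes of metabolism, glycan synthesis and transport, 43 fell and 1 rose, with a median of -0.70. SLC10A7 (-3.07), a member of the bile acid transporter family, TMEM117 (-2.85) and CHSY3, a chondroitin synthase (-2.49), were the lowest.

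RNA-binding genes and genes of genome maintenance or fragile sites fell too. Of 16 RNA-binding members, 15 fell, with a median of -0.77, among them RBMS3 (-2.46) and TNRC6B (-1.66), a scaffold of microRNA silencing. Of 21 genome maintenance and fragile site genes, 17 fell and none rose, with a median of -1.22. UVRAG, an autophagy gene, changed by -2.13, CDKAL1, a tRNA-modifying enzyme, by -2.04 and the ubiquitin ligase PARK2 by -1.24.

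The longest fragile site genes were divided. DMD, which encodes dystrophin and spans 2220 kb, had Control levels of 103, 87.4, 99.1 and 118 and Rita levels of 89.0, 91.5, 101.4 and 86.9. The groups overlapped, and the log2 fold change was -0.14 ± 0.19 (SE, n = 4 and 4; limma adjusted p = 0.586). WWOX had a value of 0.26, which was not called either, while LRP1B, a giant lipoprotein receptor, fell by 0.67 and DLG2, a synaptic scaffold, by 1.38.

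Adhesion, guidance and surface receptors had the mildest median. Of 40, 24 fell with Rita and 2 rose, with a median of -0.43. EPHA5 and EPHA3, receptors for ephrins, changed by -1.85 and -1.65, NAV3 by -1.85 and LINGO2 by -1.78. The 2 that rose were PCDH9 and CDH13, a cadherin without a transmembrane domain (0.22). The 255 members on no list had 168 falls and 15 rises, with a median of -0.73.

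Only 10 of the 528 long genes rose with Rita, and the rise was large in PCDH9. This protocadherin, at chr13:66876966-67804468 on the minus strand, had Control levels of 365, 322, 369 and 322 and Rita levels of 612, 628, 630 and 666. All 4 Rita libraries lay above Control. The log2 fold change was 0.88 ± 0.15 (SE, n = 4 and 4; limma adjusted p = 1.49e-05). RUNX1 went from 320, 303, 265 and 337 in Control to 485, 397, 430 and 601 with Rita. The groups did not overlap, and the log2 fold change was 0.63 ± 0.13 (SE, n = 4 and 4; limma adjusted p = 1.02e-04). The other 8 were FSTL4, COL4A6, MRPS22, PCBP3, CACNA2D3, SPIDR, CDH13 and APP, with log2 fold changes between 0.16 and 0.31. APP, the amyloid precursor gene, had 0.16 and changed sign when every library was set to the same total (-0.01) or under quantile normalization (-0.0002). RUNX1, APP and PCBP3 are on chromosome 21, where 3 of 6 members rose and 1 fell. On chromosome 19, 2 of 4 members rose and 1 fell. Chromosomes 3 and 16 also held 3 rises each, among 50 and 16 members. The same counts were not made over all rows of these chromosomes.

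**Figure D3:**
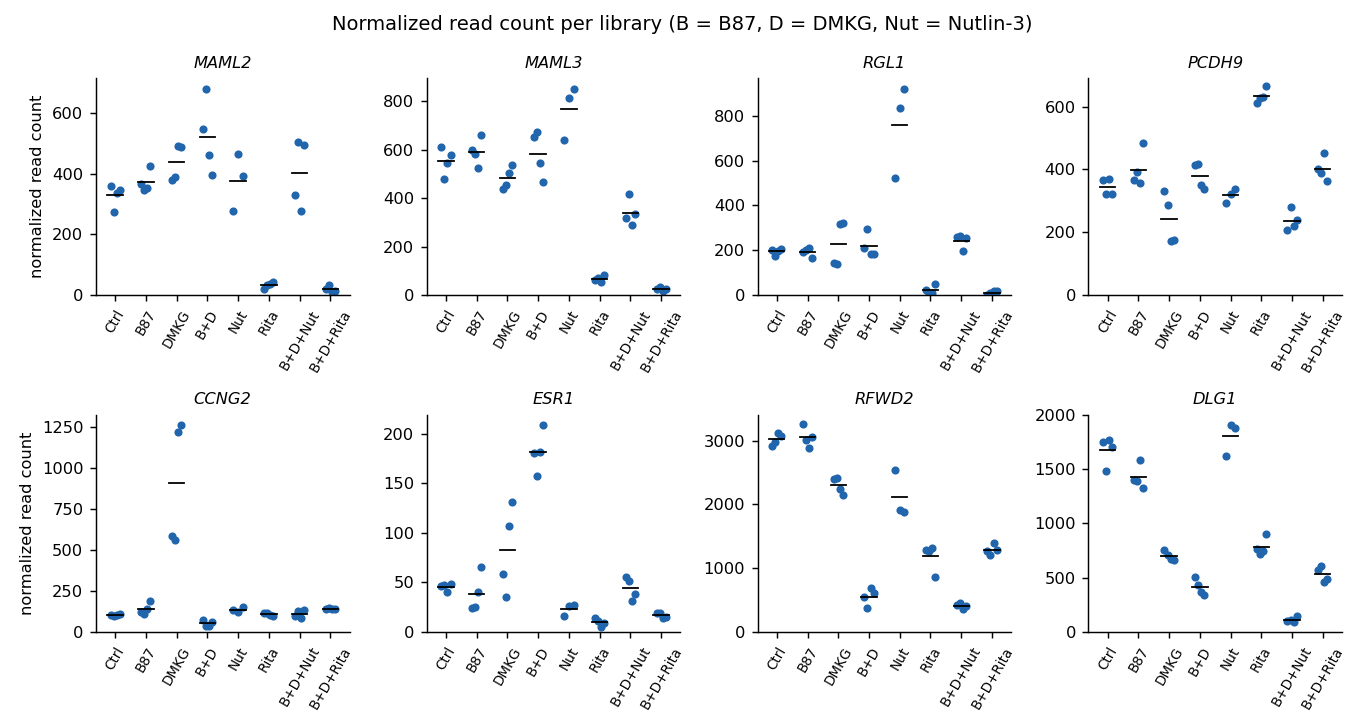
Normalized read count (linear y axis from 0) of 8 very long genes by treatment (x axis), 1 point per library and a bar at the group mean. MAML2, MAML3 and RGL1 are lowest in both groups with Rita, PCDH9 is highest in Rita alone, CCNG2 in DMKG and ESR1 in B87+DMKG, and RFWD2 and DLG1 have their lowest means in B87+DMKG+Nutlin-3.

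Related genes of different length made a comparison within families. In 14 families with a tested gene of at least 250 kb and one under 100 kb, all 25 very long genes fell with Rita, while of the 22 short ones 5 fell and 4 rose. The families were put together with these data known. In 12 families every very long gene lay below every short one. ARID1B had -2.05 and ARID1A -0.30. TCF4 and TCF12 had -2.26 and -1.36, and TCF3 had 0.27. TEAD1, a partner of the Hippo pathway's YAP, had -1.25, whereas TEAD2, TEAD3 and TEAD4 had 0.08, -0.01 and -0.19. In the exocyst and protein kinase C families the ranges overlapped.

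**Figure D4:**
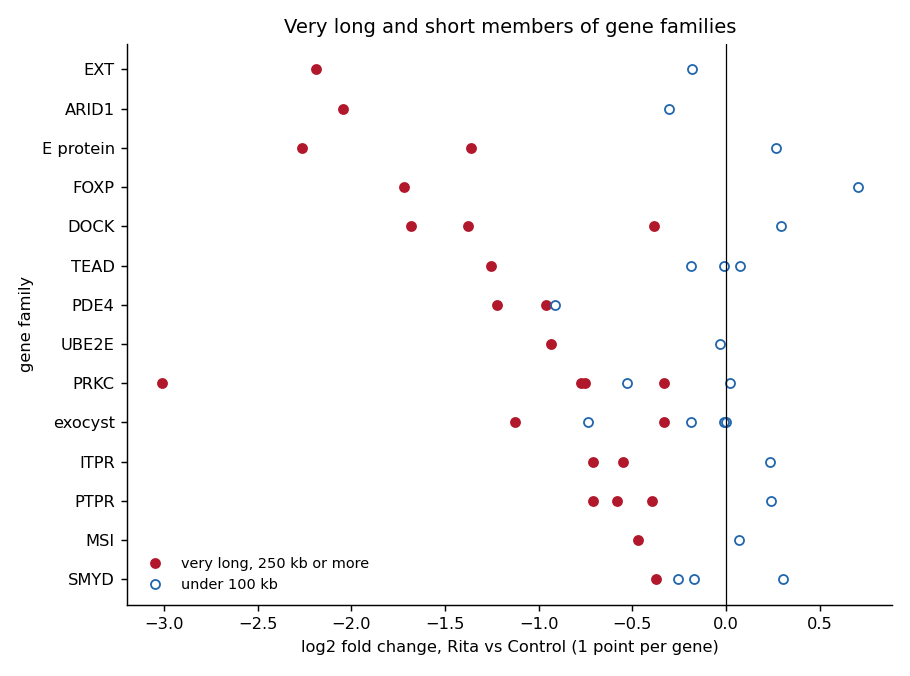
Log2 fold change with Rita (x axis) of each tested gene in the 14 gene families (y axis), with very long genes as filled red points and genes under 100 kb as open blue ones. In 12 of the 14 rows every red point lies to the left of every blue one.

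Genes nested in members gave a second comparison at the same place in the genome. For 28 tested short genes inside 25 members, the median with Rita was 0.12, with 9 higher and 7 lower, and that of the hosts was -0.79, with 20 lower and 1 higher. The nested gene had the higher fold change in 23 of 28 pairs. The largest rises were FAM196A (1.38) inside DOCK1 (-0.38) and CEBPD (1.02) inside SPIDR (0.23). The largest falls were RPA4 (-0.95) inside DIAPH2 (-1.06) and FGF13-AS1 (-0.91) inside FGF13 (-0.82). FAM196A and RPA4 averaged only 14.8 and 16.0 normalized reads. UCHL1, a neuronal deubiquitinase, had 0.33 inside APBB2 (-1.89). TFPI2 had 0.10 inside GNGT1 (-1.36) and FAM122A 0.13 inside PIP5K1B (-1.68), and neither nested gene was called (limma adjusted p = 0.169 and 0.206). The kit kept the strand, but whether the counting used it is not given in the sources used here, so reads of overlapping genes may have been assigned to either.

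Genes of the machinery that long genes depend on were counted in the same way, beside the 25.8% of all rows that were higher and the 26.3% that were lower with Rita. Of 53 tested genes of transcription elongation, 19 rose and 18 fell, with a median of -0.08. POLR2A, the largest subunit of RNA polymerase II, rose by 1.59, and MEPCE and HEXIM1, which hold the elongation kinase P-TEFb in its inactive complex, rose by 1.37 and 1.02. MLLT3, a subunit of the super elongation complex and itself a member, fell by 1.87. Of 12 genes of the U1 snRNP and cleavage suppression, 6 rose and 1 fell, and of 7 topoisomerase genes 2 rose and 3 fell, TOP1 by 0.70 and TOP2A by 1.02. With every library set to the same total, the elongation split became 13 higher and 26 lower and the U1 split 2 and 2. In the Notch list of 14 tested genes, which holds both MAML members, 6 rose and 4 fell. RBPJ, the DNA-binding partner of the MAML proteins and a member, fell by 0.62, and the target gene HES1 rose by 0.93.

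Rita on top of B87+DMKG lowered most of the same genes. Against B87+DMKG, 391 members fell and 67 rose (limma adjusted p under 0.05), with a median of -0.67, beside 34.2% and 33.1% of all rows. In 355 members all B87+DMKG+Rita libraries lay below all B87+DMKG libraries, 60.3% of the members beside 30.7% of all rows. This comparison shares no library with Rita against Control. A fall was called in both for 337 members, which is 75.2% of the 448 and 86.2% of the 391. Over all rows 2609 fell in both, 60.9% of 4281 and 47.0% of 5554. Falls were more common among the members than over all rows in both comparisons, which by itself raises the members' shares. Whether the overlap goes beyond that was not tested. Against Control, 387 members were lower and 48 higher in B87+DMKG+Rita, beside 30.7% and 29.4% of all rows. With the same total in every library, 463 were lower and 11 higher in this comparison, and 443 fell and 33 rose against B87+DMKG. Under quantile normalization the counts were 345 and 60, and 352 and 91.

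**Figure D5:**
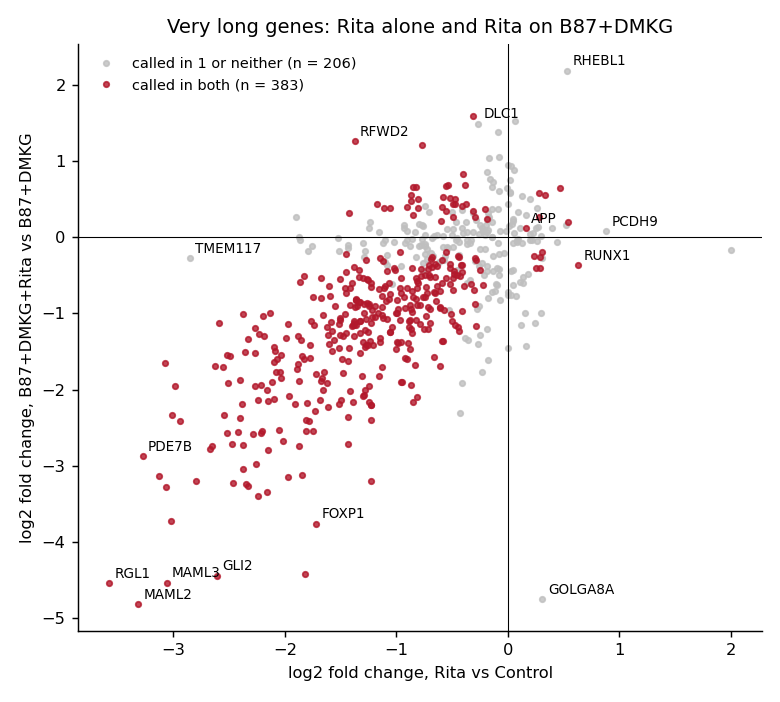
Each point is 1 of the 589 very long genes, with its log2 fold change for Rita against Control on the x axis and for B87+DMKG+Rita against B87+DMKG on the y axis. The 383 genes called in both (red) lie mostly in the lower left, MAML2, MAML3, RGL1 and GLI2 at its corner and RFWD2 above 0.

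MAML2 reached its lowest levels here. B87+DMKG libraries held 547, 680, 460 and 395, and B87+DMKG+Rita libraries 20.2, 34.0, 9.90 and 12.4. The groups did not overlap, and the log2 fold change was -4.82 ± 0.26 (SE, n = 4 and 4; limma adjusted p = 8.18e-16). MAML3 went from 651, 675, 545 and 465 to 22.8, 34.0, 17.1 and 24.9. Its log2 fold change was -4.53 ± 0.16 (SE, n = 4 and 4; limma adjusted p = 8.75e-20), again with no overlap. GLI2 stood at 706, 831, 689 and 721 in B87+DMKG and at 36.8, 30.2, 31.5 and 33.2 after Rita was added, a log2 fold change of -4.44 ± 0.18 (SE, n = 4 and 4; limma adjusted p = 1.02e-18). RGL1 had -4.54, KCTD16, a partner of GABA-B receptors, -4.42 and FOXP1, a forkhead factor, -3.76.

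By role, the transcription and chromatin genes again had the lowest median, -1.81, with 51 of 56 lower and 2 higher. Kinases and related regulators had 54 of 70 lower and a median of -0.78, adhesion receptors 28 of 40 and -0.67, and cytoskeletal genes 42 of 63 and -0.81. Metabolic genes were the most divided, with 24 of 50 lower, 12 higher and a median of -0.22.

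Whether B87+DMKG altered the Rita step was tested as the difference between the 2 steps, a comparison added after the data were seen. It was called for 293 members, 186 with a higher step in the presence of B87+DMKG and 107 with a lower one, beside 24.2% and 24.4% of all rows, and the median difference was 0.20. MAML2 and MAML3 had differences of -1.50 ± 0.37 and -1.47 ± 0.23 (SE; limma adjusted p = 0.00139 and 5.45e-06), that is, a deeper fall with B87+DMKG. PCDH9 had -0.80, and its step on B87+DMKG was 0.08 and not called. Against this, 34 members fell with Rita alone and rose with Rita on B87+DMKG, a count that was not made over all rows.

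RFWD2 was the clearest of these. It encodes COP1, a ubiquitin ligase for p53, at chr1:175913963-176176380 on the minus strand. Control libraries held 2920, 2986, 3120 and 3082, and Rita libraries 1282, 1269, 1320 and 866. B87+DMKG libraries held 549, 365, 684 and 608, and B87+DMKG+Rita libraries 1264, 1211, 1394 and 1284. Rita levels thus lay below Control without B87+DMKG and above its base with it, and the values with Rita ran from 866 to 1320 in one setting and from 1211 to 1394 in the other. The log2 fold changes were -1.37 ± 0.13 and 1.26 ± 0.13 (SE, n = 4 and 4 each; limma adjusted p = 6.88e-10 and 1.83e-09), and their difference was 2.63 ± 0.19 (limma adjusted p = 9.24e-12). MAPKAP1, a subunit of the kinase complex mTORC2, had -0.31 and 1.58, and CCNY, a cyclin, -0.77 and 1.20. TMEM117 had -2.85 with Rita alone and -0.28, not called, on B87+DMKG.

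DMKG alone moved more very long genes up than down. Of the 589, 180 rose and 71 fell (limma adjusted p under 0.05), with a median of 0.15, beside 19.6% higher and 21.8% lower over all rows. The 589 include members that owe their membership to their DMKG libraries, among them NLGN1 and SH3PXD2A. The split was not counted without them. With every library set to the same total the split was 120 and 107. That scaling shifted the median of all rows by -0.11, and the shares of all rows under it are not given. The median grew with the span in the table, from 0.12 in 443 members of 250 to 500 kb to 0.26 in 123 members of 500 to 1000 kb and 0.30 in 23 members over 1000 kb. In the last group 9 rose and none fell (limma).

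Most of the listed adhesion and guidance receptors rose. Of 40, 24 rose with DMKG and 2 fell, with a median of 0.46. Without DMKG replicates 1 and 2 the counts were 23 and 3, and without replicates 3 and 4 they were 17 and 2. No count was made without members that owe their membership to their DMKG libraries. LINGO2 rose by 1.53, the presynaptic receptor NRXN3 by 0.90, the adhesion molecule NCAM1 by 0.82 and the Slit receptor ROBO1 by 0.57. NLGN1, a partner of NRXN3 that is a member only through its DMKG libraries, had 0.82. The 2 that fell were the protocadherins PCDH7 (-0.54) and PCDH9 (-0.57). Of 50 metabolic and transport genes, 21 rose and 4 fell.

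CCNG2, a cyclin G gene linked to growth arrest, had the largest rise. Control libraries held 104, 94.8, 101.4 and 105, and DMKG libraries 580, 559, 1218 and 1259. Every DMKG library was above Control, and replicates 3 and 4 were well above replicates 1 and 2. The log2 fold change was 3.04 ± 0.23 (SE, n = 4 and 4; limma adjusted p = 8.78e-12), 3.60 without replicates 1 and 2 and 2.48 without replicates 3 and 4. ADARB2 (1.57) and RORA, a nuclear receptor of the circadian clock (1.55), followed. DOCK3 (-1.34) and UBA6-AS1 (-1.33) fell. ZBTB7C, a zinc finger gene, held 16.0, 25.6, 31.03 and 15.3 in Control and 94.7, 113, 89.8 and 106 with DMKG. It is a member only through the groups where it is high: its mean over all libraries was 50.6, and 39.03 without B87+DMKG+Nutlin-3. The podosome scaffold SH3PXD2A, a member only through its DMKG libraries, had a log2 fold change of 1.53, and NEK10, a member only through its Control libraries, had -1.42.

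DLG1, a polarity scaffold of the Scribble group, fell with DMKG and further in its combinations. At chr3:196769431-197026143 on the minus strand, it had Control levels of 1755, 1480, 1775 and 1709, DMKG levels of 754, 704, 668 and 657 and B87+DMKG levels of 502, 427, 366 and 336. These 3 groups did not overlap. The log2 fold changes against Control were -1.27 ± 0.13 and -2.05 ± 0.13 (SE, n = 4 and 4 each; limma adjusted p = 3.06e-09 and 4.87e-14).

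B87 alone called none of the members. The counts were 0 higher and 0 lower (limma adjusted p under 0.05), 28 members had an unadjusted p under 0.05, edgeR and DESeq2 called 0 and 0, and over all rows 0.0431% were called. The median was 0.01.

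With B87+DMKG, about as many very long genes rose as fell, and the split depended on the libraries. Of the 589, 187 rose and 173 fell (limma adjusted p under 0.05), with a median of 0.04, beside 30.2% and 30.8% of all rows. The median difference from the Control mean was 0.13 and 0.11 in replicates 1 and 2 and -0.03 and -0.06 in replicates 3 and 4. Mitochondrial genes held 5.39% and 7.51% of reads in the first pair and 4.21% and 2.24% in the second, and their part in the result was not tested. Without replicates 1 and 2, 119 members rose and 166 fell, with a median of -0.04, and without replicates 3 and 4, 200 rose and 149 fell, with a median of 0.11. RFWD2 had the lowest value, -2.49 ± 0.13 (SE, n = 4 and 4; limma adjusted p = 1.46e-15). MAPKAP1 (-2.11), DLG1, TMEM117 (-1.98), CCNY (-1.97) and TBL1X, a subunit of corepressor complexes (-1.87), followed. Of 50 metabolic genes 27 fell and 9 rose, and of 56 transcription and chromatin genes 22 rose and 10 fell. ESR1, the estrogen receptor alpha, held 45.9, 46.9, 40.6 and 48.1 in Control and 181, 157, 182 and 209 with B87+DMKG. It is a member only through the latter group, as its mean of 56.3 would be 37.6 without it. GOLGA8A (4.03), whose gene is 58 kb long and belongs to a family of near-identical copies, so that its reads are uncertain, and the prohormone convertase PCSK2 (1.94) were also high.

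The change beyond the sum of B87 and DMKG was called higher for 94 members and lower for 178, beside 24.6% and 24.1% of all rows, with a median of -0.13. With the same total in every library it was 118 and 129. Leaving out pairs of DMKG or B87+DMKG libraries gave 66 to 118 higher and 155 to 188 lower. CCNG2 had the lowest value, -4.53 ± 0.33 (SE; limma adjusted p = 4.41e-12): its B87+DMKG libraries held 69.4, 34.7, 34.7 and 61.6, below every Control library. PPARGC1A, the coactivator of mitochondrial genes, had 1.66.

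Nutlin-3 moved fewer very long genes than Rita. Against Control 136 rose and 89 fell (limma adjusted p under 0.05), with a median of 0.07, beside 18.5% and 20.7% of all rows. With the same total in every library 73 rose and 135 fell. That scaling shifted the median of all rows by -0.13, and the shares of all rows under it are not given. The median difference from the Control mean was -0.06 in replicate 1, and 0.14 and 0.10 in replicates 2 and 3. Mitochondrial genes held 2.42% of reads in replicate 1, and 4.33% and 5.39% in the other two, and their part in the result was not tested. Without replicate 1, 165 members rose and 73 fell, with a median of 0.12. Without replicate 2 the counts were 89 and 75, and without replicate 3 they were 87 and 60. RGL1, lowest with Rita, was the highest here, with levels of 521, 835 and 920 in the 3 Nutlin-3 libraries, all above Control. Its log2 fold change was 1.92 ± 0.50 (SE, n = 3 and 4; limma adjusted p = 0.00254). PCLO, a presynaptic scaffold, went from 109, 36.2, 62.1 and 58.0 to 192, 212 and 205. The groups did not overlap, with a log2 fold change of 1.71 ± 0.34 (SE, n = 3 and 4; limma adjusted p = 1.58e-04). TRIM5, a restriction factor (1.51), and RUNX1 (1.06) rose too, and MAML3 rose by 0.47. TNS3, a tensin of focal adhesions (-1.80), and HIVEP3 (-1.71) fell.

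Set directly against Nutlin-3, Rita gave lower levels in 439 members and higher ones in 16 (limma adjusted p under 0.05), with a median of -0.89, beside 24.8% and 26.4% of all rows. In 436 members all Rita libraries lay below all Nutlin-3 libraries, 74.0% of the members beside 24.3% of all rows. RGL1 differed by -5.50 ± 0.50 and MAML3 by -3.53 ± 0.18 (SE, n = 4 and 3; limma adjusted p = 1.50e-10 and 3.92e-16). The 2 compounds were given at different doses.

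With B87+DMKG, Nutlin-3 left a mixed pattern. Against Control 141 members rose and 209 fell (limma adjusted p under 0.05), beside 28.3% and 29.7% of all rows, with a median of -0.07. Under quantile normalization the split was 196 and 160, with a median of 0.08, and at 1 equal library total it was 94 and 251. Against B87+DMKG 123 rose and 225 fell, beside 26.5% and 32.3% of all rows, with 171 and 170 under quantile normalization and 87 and 284 with the same total. DLG1 reached 93.8, 108, 85.9 and 143, below every library of the other groups named for it. Its log2 fold change against Control was -3.97 ± 0.13 (SE, n = 4 and 4; limma adjusted p = 1.55e-21), while Nutlin-3 alone gave 0.10 (adjusted p = 0.588). MAPKAP1 (-3.53), RFWD2 (-2.90), the chromatin remodeller subunit ARID2 (-2.86) and TRIO, a guanine nucleotide exchange factor (-2.65), followed. ZBTB7C, which owes its membership to this group, held 147, 114, 140 and 114. PARK2 rose by 1.50 and ARHGEF3 by 1.45. CACNA2D3, an auxiliary calcium channel subunit, fell by 2.65 against B87+DMKG.

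Of the 589 members, 11 were called in none of the 7 comparisons with Control. The same count was not made over all rows, so it cannot be read as particular to the members.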

How the data were processed

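The authors deposited 1 table of DESeq2-normalized read counts, a signal of reads divided by a size factor per library, with hg19 coordinates per the file headers. STAR 2.4.0, FastQC, Picard, SAMtools and DESeq2 are named in the submitters' processing notes, which also list mm10, and neither the counting tool nor its strand setting is named there. Each library's smallest step gave back whole reads for 100% of values (within 0.1 of a read), 33.4 to 82.5 M per library, and intervals from the spread between libraries limit the precision. The table had no columns outside the 31 samples.

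Members and gene lists were chosen with earlier results of these data known. Levels were tested as log2(level + 1) with limma 3.58.1 (R 4.3.3, trended variance) in 1 model over all 31 libraries and 8 groups, on the 16259 rows with a mean of at least 10, for 11 comparisons and 1 added after the data were seen. Calls were made at 0.05 after Benjamini-Hochberg adjustment across the rows tested. The test was checked on simulated data. Genes named were MAML1, MAML2 and MAML3, up to 5 called rises and 5 called falls per comparison, up to 4 leading genes per role list, the 10 longest members and the 10 of the highest mean, the neighbours of both limits, the families, and leading nested genes; others were chosen after their values were seen. A few genes and 2 gene families that these rules name are not reported here. Lengths and exons came from GENCODE release 29 by Entrez gene ID, or by symbol where no ID matched. Start regions came from RefSeq on GRCh38.p14 in the same way, so these coordinates were not mixed with hg19. Alternatives were edgeR 4.0.16 and DESeq2 1.42.0 on the whole reads, other pseudocounts, filters and scalings, a replicate block, and leaving out libraries.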

Additional observations from a re-analysis of the deposited data

Results flagged for a closer look

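Among 98 groups of 4 libraries looked at (the printed genes and the median of the very long genes, in each treatment), 3 held a library far from the other 3. Chance gives about 1 in 20 such groups. RGL1 was lower in B87+DMKG+Nutlin-3 replicate 3 (195 normalized reads) than in the other 3 libraries of that group. RFWD2 was lower in Rita replicate 4 (866). The median of the very long genes was lower in B87+DMKG+Rita replicate 4 (-0.745 against the Control mean on the log2 scale) than in the other libraries of that group.

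The Rita step differed with B87+DMKG by a test of the difference itself (limma adjusted p under 0.05) in 186 members that were higher and 107 that were lower. The 3 with the largest differences downward were GOLGA8A (-5.06), KCTD16 (-2.60) and NPIPB9 (-2.18), of which GOLGA8A and NPIPB9 are short genes in families of near-identical copies. NPIPB9 is a member only through its Rita libraries, so its value is a description. The 3 upward were RFWD2 (2.63), TMEM117 (2.58) and FRMD3 (2.16).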

How the results depend on the processing

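The Rita result kept its direction under every alternative run: 448 to 491 members were called, 428 to 484 of them lower, with a median between -1.03 and -0.75, and leaving out 1 library gave 450 to 460 called. Requiring in addition a log2 change of 1 or more in size lowered every count, by construction: 24 for DMKG, 62 for B87+DMKG, 19 for Nutlin-3, 254 for Rita, 83 for B87+DMKG+Nutlin-3 and 201 for B87+DMKG+Rita, each against Control. The same rule gave 67 and 229 for the Nutlin-3 and Rita steps on B87+DMKG, 267 for Rita against Nutlin-3, 77 beyond the sum of B87 and DMKG and 92 for the difference between the Rita steps. Leaving out 1 library moved the Nutlin-3 count between 147 (without Nutlin-3 replicate 3) and 238. Leaving out DMKG replicates 1 and 2, or 3 and 4, gave 184 to 242 calls with DMKG. Leaving out the same pairs of B87+DMKG, chosen after seeing the data, gave 285 to 349 calls with B87+DMKG, and it turned the sign of the median (-0.04 and 0.11). It gave 290 to 351 calls for the Nutlin-3 step, 414 to 453 for the Rita step, 254 to 273 beyond the sum and 273 to 295 for the difference between Rita steps.

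Setting every library to the same total shifted the median of all rows by -0.17 with Rita, -0.25 with B87+DMKG+Rita and -0.24 for the Rita step on B87+DMKG. The shift was -0.11 with DMKG, -0.13 with Nutlin-3 and -0.16 with B87+DMKG+Nutlin-3. This scaling also moved the splits printed beside those results. The shares of all rows called under it are not given, so those splits have no background of the same scaling. Signs turned for APP with Rita (-0.0122, and -0.0002 under quantile normalization) and in the Rita step on B87+DMKG (-0.1244 and -0.1189), for NELFCD (-0.0350) and CSTF2 (-0.0039) with Rita under the same total, and for KRT19 in the Rita step on B87+DMKG under quantile normalization (-0.1129); the cause was not tested. Of 411 pairs of a named gene and a comparison, 321 were called under every alternative, 90 were not under at least 1, and 5 turned sign under at least 1.

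Replicate numbers are shared between groups, but same-numbered libraries showed little shared deviation. The correlations of their deviations from the group means ran from -0.19 to 0.18. With the replicate number as a block, 464 members were called with Rita, 452 for the Rita step on B87+DMKG, 241 with DMKG, 356 with B87+DMKG and 217 with Nutlin-3. The other blocked counts were 0 for B87, 346 and 431 for B87+DMKG+Nutlin-3 and B87+DMKG+Rita, 345 for the Nutlin-3 step, 454 for Rita against Nutlin-3, 268 beyond the sum and 288 for the difference between Rita steps. At low levels such as RGL1 with Rita, depth limits the fold change.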
